A study of Mus musculus with 12 samples.

Results

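Human genetic studies have tied a set of genes to the risk of late-onset Alzheimer's disease (AD), and 10 of their mouse counterparts are described here in the hippocampus of a mouse model of amyloid deposition: Inpp5d, Cd33, Abi3, Abca7, Bin1, Picalm, Cd2ap, Sorl1, Ptk2b and Epha1. The members were found by gene symbol, taking each exon probe set that the array's annotation gives to 1 gene only. All 10 genes were tested, among 18101 genes in all. They hold 339 of the 321091 probe sets with 1 symbol, and 305 of the 339 lay at or above the background level, which was set at the median log2 signal of the whole table (5.35). Epha1 was the member least covered, with 8 of its 24 probe sets above that level, and Sorl1 had all 54 of its probe sets above it.

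The RNA came from the hippocampus of 12 mice aged 14 to 15 months, each on an exon array of its own (Affymetrix Mouse Exon 1.0 ST). The 4 groups held 3 mice each. They were wild-type mice, mice with the 5xFAD transgenes, mice with the eIF2α+/S51A allele, and 5xFAD;eIF2α+/S51A mice, which carry both changes. 5xFAD mice carry human transgenes with mutations of familial AD, expressed in neurons from Thy1 sequences, and deposit amyloid in the brain. The eIF2α+/S51A mice carry a knock-in on 1 allele, in which the regulatory serine of the translation factor eIF2α is replaced by alanine and cannot be phosphorylated, while the other allele is normal. The 5xFAD parents were hemizygous on a mixed B6/SJL background and the knock-in parents were on C57BL/6J, so all 4 groups are offspring of a cross in which the background can vary from mouse to mouse. The values below are log2 signals, and a difference of 1 is a doubling of the signal.

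The members fall into classes by where their RNA is found in brain tissue. Inpp5d, Cd33 and Abi3 are expressed chiefly by microglia, the resident phagocytes of the brain, which gather at amyloid deposits and sense lipids, sialic acids and debris through surface receptors. Abca7, Bin1, Picalm, Cd2ap, Sorl1 and Ptk2b are expressed by neurons or by many cell types and act in lipid transport, endocytosis, protein sorting and synaptic signalling. Epha1 is an ephrin receptor known mainly from epithelia, and is low in brain.

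The proximal promoters of 3 members are shown: those of the microglial members with a RefSeq entry, Inpp5d and Cd33, which rose together in the data below, and that of Picalm, the broadly expressed member with the most CpG dinucleotides, which was not called. Each is the stretch of 250 bases before the RefSeq transcription start (assembly GRCm38.p6), printed 5′ to 3′ on the strand of the gene, with every CpG dinucleotide in capitals. Inpp5d lies at chr1:87620062-87620311 on the plus strand, Cd33 at chr7:43533172-43533421 on the minus strand, and Picalm at chr7:90129963-90130212 on the plus strand. The annotated Cd33 gene spans 43527399 to 43537424, so its window lies inside the gene and not before its outermost 5′ end. The annotated Picalm gene begins at 90130192, so the end of its window overlaps the gene.
Inpp5d: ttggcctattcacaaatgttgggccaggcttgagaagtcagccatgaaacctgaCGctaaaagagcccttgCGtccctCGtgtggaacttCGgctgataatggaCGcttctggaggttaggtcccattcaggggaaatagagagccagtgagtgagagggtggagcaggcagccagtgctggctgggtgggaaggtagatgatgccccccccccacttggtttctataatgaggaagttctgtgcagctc
Cd33: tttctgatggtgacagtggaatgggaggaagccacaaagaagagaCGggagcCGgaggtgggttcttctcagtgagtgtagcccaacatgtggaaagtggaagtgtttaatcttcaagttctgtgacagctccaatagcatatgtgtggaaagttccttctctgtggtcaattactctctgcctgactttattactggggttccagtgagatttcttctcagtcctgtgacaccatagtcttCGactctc
Picalm: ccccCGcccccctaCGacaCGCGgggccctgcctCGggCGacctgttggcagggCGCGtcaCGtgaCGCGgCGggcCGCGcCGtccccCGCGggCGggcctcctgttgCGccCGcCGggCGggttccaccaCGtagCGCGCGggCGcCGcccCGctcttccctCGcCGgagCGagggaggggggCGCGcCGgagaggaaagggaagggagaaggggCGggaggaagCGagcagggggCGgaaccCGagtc
The Inpp5d window held 5 CpG dinucleotides and the Cd33 window held 3, against 39 in the Picalm window. The median over 32851 RefSeq promoter windows of this length was 6, with quartiles at 2 and 16. The other windows held 31 (Cd2ap), 26 (Sorl1, with 9 at a second start), 12 (Abca7) and 9 (Epha1). Promoter entries matched 7 of the 10 members, and Abi3, Bin1 and Ptk2b had none. Windows of 9 microglial marker genes held a median of 5 CpG dinucleotides (range 1 to 13), and those of 9 neuronal marker genes a median of 13 (3 to 34).

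The core motif GAGGAA, bound by the myeloid transcription factor PU.1, was searched on both strands. With positions counted back from the start, it was found once in the Inpp5d window, at -20 to -15, and once in the Cd33 window, at -226 to -221. Picalm, a broadly expressed gene, had it at 2 places, -57 to -52 and -31 to -26, and 23.3% of all windows held at least 1 match. The RUNX core TGTGGT, also searched on both strands, occurred in the Cd33 window at -88 to -83 and in the Abca7 window at -115 to -110, and in 4614 of the 32851 windows. None of these matches overlapped a match to the other motif, and a match describes letters in a window and not a bound site.

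Before the members, the labels and the tissue were checked. Thy1, whose sequences also drive the transgenes, read between 10.97 and 11.34 in the 6 transgenic mice and between 10.04 and 10.42 in the other 6, as the labels give the groups. RNA of the gene itself and of the transgenes cannot be told apart in these probe sets. Neuronal markers had a mean level of 10.42 to 10.68 on every array, none of 11 was called, and the median log2 fold change with the transgenes was -0.06. Choroid plexus markers differed widely between arrays. Their mean level ran from 7.00 to 9.71 in wild-type, 7.18 to 9.38 in 5xFAD, 7.10 to 9.28 in 5xFAD;eIF2α+/S51A and 8.78 to 9.62 in eIF2α+/S51A mice. All 10 of them were higher in eIF2α+/S51A than in wild-type mice, with a median log2 fold change of 1.12 and none called. With their level as a covariate, the same number of members was called in every comparison. Xist was high in 1 of the 3 mice of each group. A gene was called where the adjusted p of limma was under 0.02 and the fold change was above 1.6 (0.68 on the log2 scale), the thresholds of the study's methods. With 3 mice in a group, differences between groups had a standard error of 0.11 at the median gene, and its 95% interval reached 0.24 to each side.

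The question for the transgenes is which of the risk gene counterparts move in the hippocampus that carries them. The 3 microglial members rose, by 1.65 to 2.06 fold over all 12 mice, and none of the other 7 members was called. Of all genes, 1.21% were called higher and 0 were called lower. The microglial members had a median log2 fold change of 0.96, the 6 neuronal or broadly expressed members 0.05, and all genes tested 0.01. In tissue RNA, more cells of a type and more RNA per cell cannot be told apart.

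**Figure D1:**
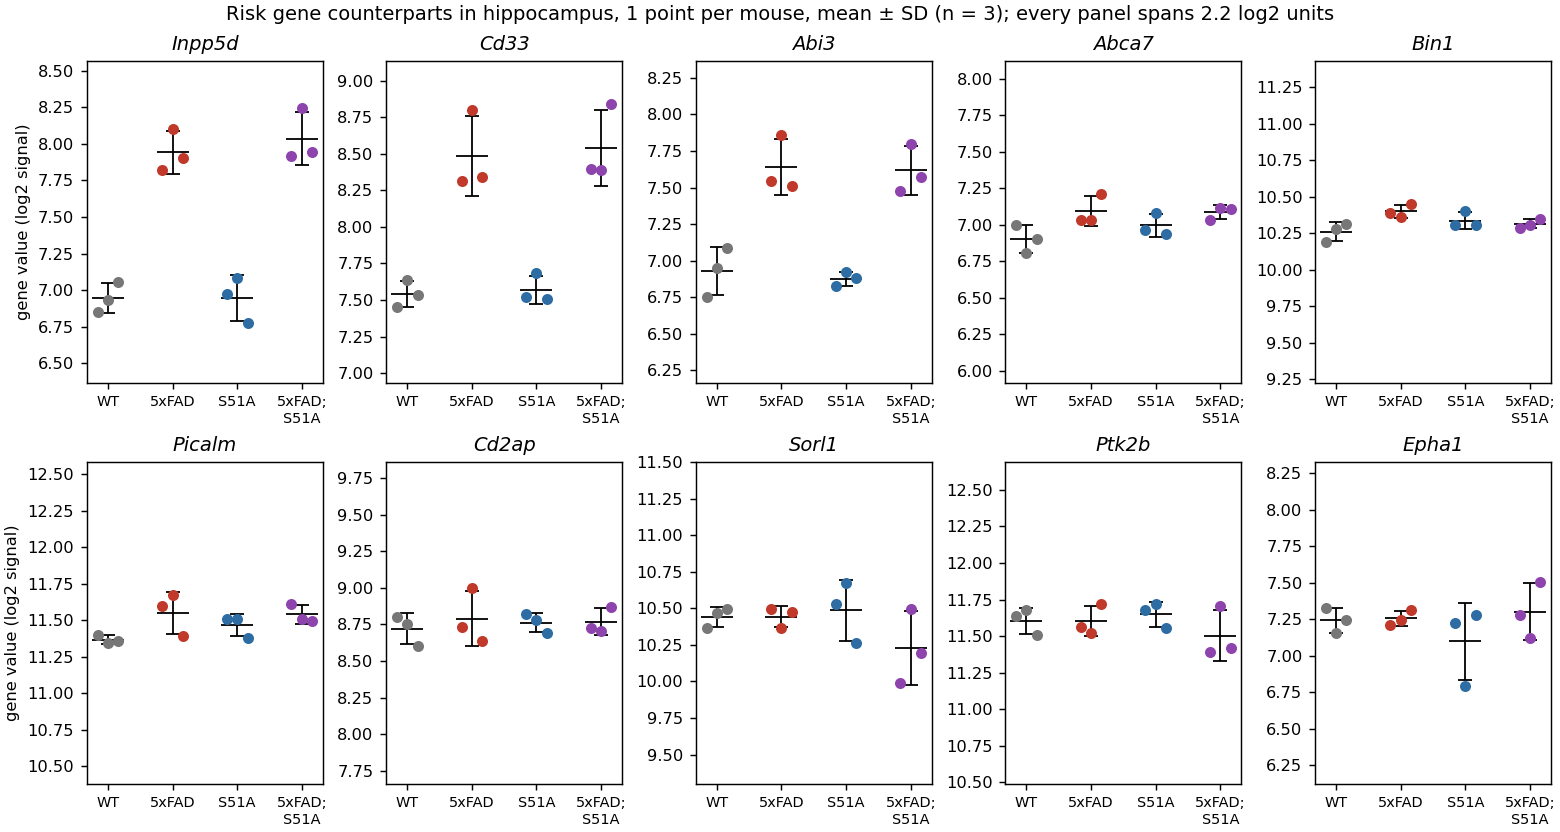
Gene values on the log2 signal scale for the 10 members, 1 point per mouse, with the mean and SD of each group (n = 3); WT is wild-type and S51A is eIF2α+/S51A, and every panel spans the same number of log2 units. The Inpp5d, Cd33 and Abi3 points of the 6 transgenic mice all lie above those of the other 6, and in the other panels transgenic and other mice overlap.

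Inpp5d encodes SHIP1, a lipid phosphatase that removes a phosphate from the product of PI3-kinase and so restrains signalling behind receptors of myeloid cells. The Inpp5d level was 6.85, 6.93 and 7.06 in wild-type mice and 7.82, 8.10 and 7.90 in 5xFAD mice. It was 6.98, 7.08 and 6.77 in eIF2α+/S51A mice and 7.92, 8.24 and 7.95 in 5xFAD;eIF2α+/S51A mice. Every transgenic mouse lay above every other mouse, with the lowest transgenic value 0.74 above the highest of the rest. Such a separation over 12 mice, in the upward direction, was seen in 3.56% of all genes. The log2 fold change was 1.00 ± 0.12 (SE) in 5xFAD against wild-type mice (95% interval 0.74 to 1.25, limma adjusted p = 0.000555). In the knock-in background, that is in the other 6 animals, it was 1.09 ± 0.12 (0.84 to 1.35, limma adjusted p = 0.000282). Both comparisons thus gave about a doubling, which over all 12 mice came to 1.04 ± 0.08 (limma adjusted p = 8.31e-06).

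Cd33 encodes a sialic acid-binding lectin on myeloid cells. Its level was 7.45, 7.64 and 7.53 in wild-type mice and 8.32, 8.80 and 8.34 in 5xFAD mice. It was 7.52, 7.68 and 7.51 with the knock-in alone and 8.39, 8.39 and 8.84 with both changes. The 4 groups formed a low pair and a high pair that did not overlap, and in each high group 1 mouse stood above the rest. Of all genes, 3.56% separated the 12 mice upward in this way, and 8.41% separated the 6 mice of the knock-in background. The log2 fold change was 0.95 ± 0.15 against wild-type mice (0.63 to 1.26, limma adjusted p = 0.00405) and 0.97 ± 0.15 in the knock-in background (0.65 to 1.29, limma adjusted p = 0.00321). Over all 12 mice it was 0.96 ± 0.10 (limma adjusted p = 0.000104).

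Abi3 encodes an adaptor of the Abl interactor family, whose members belong to the WAVE complex that drives branching of actin filaments. Its level was 6.75, 6.95 and 7.09 in wild-type mice and 7.55, 7.86 and 7.51 in 5xFAD mice. It was 6.82, 6.92 and 6.88 in eIF2α+/S51A mice and 7.48, 7.80 and 7.58 in 5xFAD;eIF2α+/S51A mice. The transgenic mice again lay above all the others, with a gap of 0.39 between them against 0.74 for Inpp5d. The log2 fold change was 0.71 ± 0.12 (0.45 to 0.97, limma adjusted p = 0.00712) against wild-type mice and 0.74 ± 0.12 (0.48 to 1.00, limma adjusted p = 0.00518) in the knock-in background. Over all 12 mice it was 0.73 ± 0.08 (limma adjusted p = 0.000192). This lies close to the fold threshold, and the call over all 12 mice was lost without 5xFAD replicate 2, where the log2 fold change was 0.67. Of 25 alternatives, 7 lost the call against wild-type mice (log2 fold changes of 0.60 to 0.72), quantile normalization and array weights among them. In the knock-in background 3 lost it (0.65 to 0.76), each by leaving out 1 mouse.

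In each of the separate comparisons these 3 genes were the members called, against 0.956% of all genes called higher in 5xFAD against wild-type mice and 0.967% in the knock-in background. Called lower were 0.00552% of all genes in each, and no member. Markers of microglia moved with them. The marker counts and fold changes that follow are over all 12 mice, where 1.21% of all genes were called higher, unless stated. Of 13 microglial markers tested, 7 were called higher and all 13 had a log2 fold change above 0, with a median of 0.79 (0.33 to 1.08). In the separate comparisons, 8 of the 13 were called against wild-type mice and 5 in the knock-in background. Their mean level was 8.31 to 8.60 on the transgenic arrays and 7.60 to 7.89 on the others. The median of these markers lay between the values of Abi3 and Cd33. Of 12 genes known from microglia at amyloid deposits, 9 were called, with a median of 1.85. Astrocyte markers moved as well, with 2 of 8 called (Gfap by 2.03 and Aqp4 by 0.90). Of 6 tested blood leukocyte markers none was called, with a median of 0.15, and the other markers of that list had too few probe sets above background to be tested. The part of these cell types in the rise of the members was not tested.

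**Figure D2:**
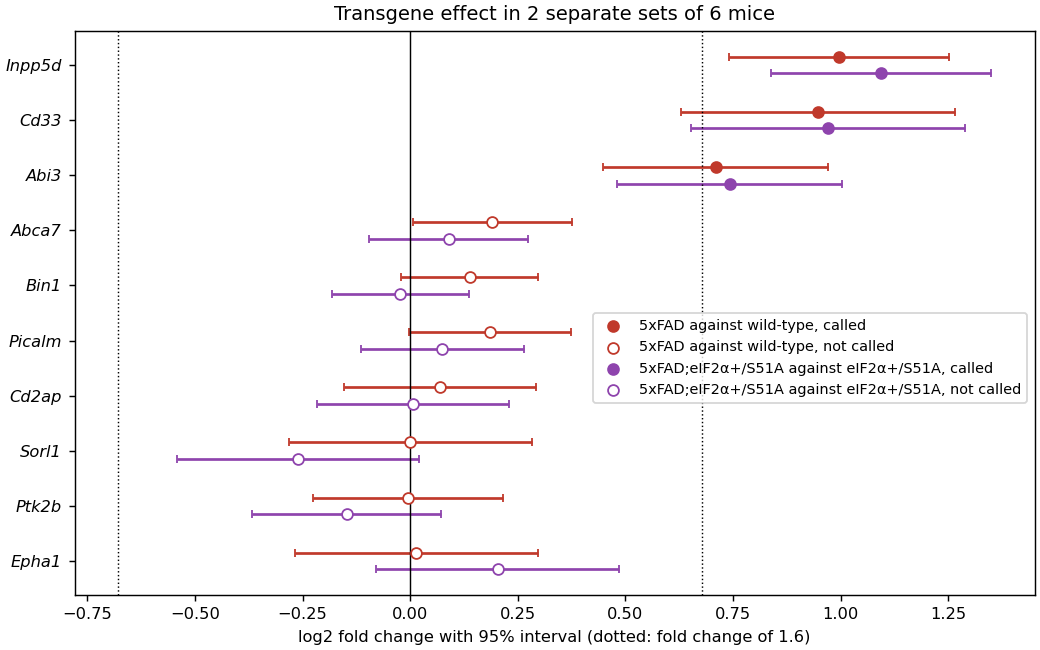
Log2 fold change of each member with its 95% interval in 5xFAD against wild-type mice (red) and in the knock-in background (purple), which share no animal; filled points were called and dotted lines mark a fold change of 1.6. Inpp5d, Cd33 and Abi3 lie between 0.71 and 1.09 in both, and the other 7 members lie between -0.26 and 0.20.

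The genes whose profile over the 12 arrays was most like each of the 3 were found from the root mean square difference of values centred on the mean of the gene. Inpp5d was followed most closely by Csf1r (0.07), the receptor on whose signal microglia depend, then by Vsir (0.10) and Man2b1 (0.11). Cd33 was followed by Lcp2 (0.10), Lcp1 (0.10) and Aqp4 (0.11), of which Aqp4 is the water channel of astrocytes. Abi3 was followed by Ptgs1 (0.09), Cd22 (0.10) and Sla (0.10).

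Abca7 is a lipid transporter of the ABC family. Its level was 7.00, 6.81 and 6.90 in wild-type mice and 7.03, 7.04 and 7.21 in 5xFAD mice, which did not overlap, a separation that 10.9% of all genes showed in that direction. It was 6.97, 7.08 and 6.94 in eIF2α+/S51A mice and 7.03, 7.12 and 7.11 in 5xFAD;eIF2α+/S51A mice, which overlapped. The log2 fold change was 0.19 (0.01 to 0.38, limma adjusted p = 0.586) and 0.09 (-0.09 to 0.27, limma adjusted p = 0.834) in these comparisons, and 0.14 (0.01 to 0.27, limma adjusted p = 0.352) over all 12 mice. The intervals leave out changes of the size seen in Cd33.

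Bin1, a membrane-bending protein of the amphiphysin family, is also abundant in oligodendrocytes. It read between 10.19 and 10.45 on all 12 arrays. The 5xFAD mice (10.36 to 10.45) lay above the wild-type mice (10.19 to 10.31), as in the 10.9% of all genes given above, and the difference was 0.14 (-0.02 to 0.30, limma adjusted p = 0.773), and with the knock-in it was -0.02 (-0.18 to 0.14). Of 7 oligodendrocyte markers tested none was called, with a median of 0.36 over all 12 mice. A limma adjusted p under 0.05 was found in 2 of the 7, both higher, against 3.47% of all genes. Against wild-type mice it was found in 3 of the 7, against 1.67% of all genes. Mean marker levels were 10.00 to 10.15 in 5xFAD and 9.48 to 9.65 in wild-type mice. They were 9.81 to 10.16 in 5xFAD;eIF2α+/S51A and 9.58 to 9.99 in eIF2α+/S51A mice. The part of oligodendrocytes in the Bin1 values was not tested.

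Picalm recruits clathrin to forming vesicles, and Cd2ap is a scaffold between endocytic vesicles and the actin cytoskeleton. The log2 fold change of Picalm was 0.19 (-0.00 to 0.37, limma adjusted p = 0.651) against wild-type mice and 0.07 (-0.11 to 0.26) in the knock-in background. For Cd2ap the values were 0.07 (-0.15 to 0.29) and 0.01 (-0.22 to 0.23). Picalm ranged from 11.34 to 11.67 and Cd2ap from 8.60 to 9.00 over the arrays, and for neither did the transgenic mice separate from the rest.

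Sorl1 is a sorting receptor that moves the amyloid precursor protein between endosomes and the Golgi, and Ptk2b encodes Pyk2, a calcium-responsive tyrosine kinase abundant in hippocampal neurons. Sorl1 read 10.36, 10.47 and 10.49 in wild-type and 10.49, 10.36 and 10.47 in 5xFAD mice, which are the same range. It read 10.53, 10.67 and 10.26 in eIF2α+/S51A mice and 9.99, 10.50 and 10.19 in 5xFAD;eIF2α+/S51A mice, so that the lowest mouse of all was in the last group while another of that group read as high as the highest wild-type mouse. The Sorl1 difference was 0.00 (-0.28 to 0.28) without the knock-in and -0.26 (-0.54 to 0.02, limma adjusted p = 0.577) with it. For Ptk2b it was -0.01 (-0.22 to 0.21) and -0.15 (-0.37 to 0.07). Neither passed the test in any comparison. Epha1, the member low in brain, differed by 0.01 (-0.27 to 0.30) and 0.20 (-0.08 to 0.49), and its value rests on 8 probe sets.

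The knock-in allele addresses another question, whether 1 allele of eIF2α that cannot be phosphorylated alters these genes. In the study's immunoblots, hippocampal eIF2α phosphorylation was not significantly different in mice with the allele. The comparisons below thus describe the allele, and an effect of lower phosphorylation was not tested. No member was called for the allele without the transgenes, for the allele with them, or for the interaction, and neither was any of the 18101 genes, so that the percent called was 0 in each. At an unadjusted p under 0.05 there were 400, 439 and 426 genes. With array weights, 70 genes were called for the allele without the transgenes, and no member was among them. In 5xFAD;eIF2α+/S51A against 5xFAD mice, Inpp5d differed by 0.09 (-0.16 to 0.35), Cd33 by 0.05 (-0.26 to 0.37) and Abi3 by -0.02 (-0.28 to 0.24). Over the 10 members the allele moved values by -0.22 (Sorl1) to 0.09 in transgenic mice and by -0.14 (Epha1) to 0.10 (Picalm) in the others. The 3 Bin1 values with both changes (10.29 to 10.35) lay below the 3 with the transgenes alone, as in 4.65% of all genes, with a difference of -0.09 (-0.24 to 0.07).

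The interaction compares the transgene difference with and without the allele directly. It was 0.10 (-0.26 to 0.46) for Inpp5d, 0.02 (-0.43 to 0.47) for Cd33 and 0.03 (-0.34 to 0.40) for Abi3, all with a limma adjusted p of 1. All 3 intervals hold 0, and changes in the response within these bounds could not be told from none with 3 mice per group.

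The array measures many exon probe sets per gene, which gives several readings of the same RNA on the same 12 arrays. With the transgenes, 40 of the 305 member probe sets were called higher, all of them in Inpp5d (23 of 35), Cd33 (10 of 15) and Abi3 (7 of 16). Of 245890 probe sets of all genes, 0.799% were called higher. All 35 Inpp5d probe sets and all 15 of Cd33 had a value above 0, and 15 of 16 of Abi3 did. The called probe sets spanned log2 fold changes of 0.73 to 1.80 in Inpp5d, 0.76 to 1.45 in Cd33 and 0.95 to 1.25 in Abi3. The background filter took the mean over all 12 arrays, so mice without the transgenes could lie below background in a probe set that passed. The lowest mean of a called probe set was 5.56 in Inpp5d, 5.78 in Cd33 and 7.00 in Abi3. In the Inpp5d probe set at 5.56, mice without the transgenes averaged below background. Such a fold change gives a direction and no size. In the members that were not called, values over all 12 mice were mostly of 1 sign along the transcript in some. Above 0 were 38 of 39 Picalm and 27 of 29 Bin1 probe sets, but 3 of 54 in Sorl1 and 1 of 30 in Ptk2b. Against wild-type mice the counts were 39 for Picalm, 29 for Bin1, 29 for Sorl1 and 13 for Ptk2b. In the knock-in background they were 34, 14, 1 and 0 in the same order. Values mostly below 0 in Sorl1 and Ptk2b were thus seen in the knock-in background and not against wild-type mice. Probe sets of a gene share their arrays, so these counts carry no test.

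**Figure D3:**
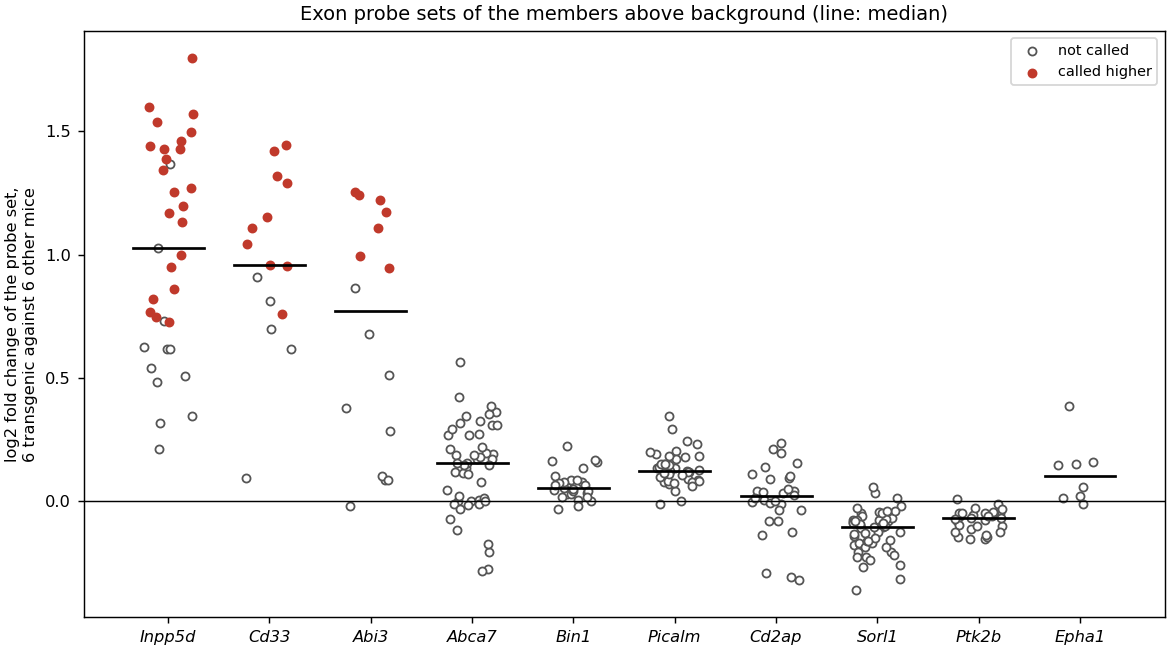
Log2 fold change of each exon probe set of the members above background, 6 transgenic against 6 other mice; filled points were called higher and the horizontal line is the median of the gene. The called probe sets are in Inpp5d, Cd33 and Abi3, and 1 Cd33 probe set lies near 0 at 0.09.

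The diffSplice F-test of limma asked whether the probe sets of a gene moved by equal amounts. It treats the probe sets of an array as independent. Unequal movement was found in Inpp5d (adjusted p = 2.20e-12), Abi3 (adjusted p = 9.42e-07) and Cd33 (adjusted p = 0.000632), and in no other member, against 1.64% of all genes. These are also the 3 called members, and the other members were not called. Most of all genes were not called either. Whether unequal movement is found more often where a gene changes more was not tested. Whether the 3 differ in unequal movement from other genes that rose was not tested either. Within the separate comparisons, 1 of the 3 passed the same threshold in 5xFAD against wild-type mice, as 0.796% of all genes did (Inpp5d, adjusted p = 1.05e-06, with Cd33 at 0.0320 and Abi3 at 0.0418) and none did in the knock-in background, where 0.657% of all genes did (Abi3 0.0263, Inpp5d 0.0741, Cd33 1). The Cd33 probe set most unlike its neighbours, 4539687, is a clear case. It read 8.72 ± 0.01 in wild-type, 8.73 ± 0.20 in 5xFAD, 8.63 ± 0.14 in eIF2α+/S51A and 8.81 ± 0.26 in 5xFAD;eIF2α+/S51A mice (SD, n = 3), well above background, and its log2 fold change was 0.94 below that of the other Cd33 probe sets. The Cd33 probe set with the smallest p, 4569457, read 8.43 ± 0.20, 9.48 ± 0.28, 8.28 ± 0.21 and 9.53 ± 0.11 in the same order.

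In Abi3 the probe set most unlike the others, 4835729, read 7.02 ± 0.11 in wild-type and 6.89 ± 0.41 in 5xFAD mice, while 4352145, with the smallest p, read 8.41 ± 0.03 and 9.59 ± 0.07. In Inpp5d the most unlike probe set, 4558960, read 7.24 ± 0.30 in wild-type, 7.11 ± 0.52 in 5xFAD, 7.54 ± 0.08 in eIF2α+/S51A and 8.10 ± 0.29 in 5xFAD;eIF2α+/S51A mice, with a difference of -0.14 without the knock-in and 0.56 with it. For the interaction, 0 of the 35 Inpp5d probe sets were called, this one included. The Inpp5d probe set with the smallest p, 4517444, read 6.72 ± 0.11 in wild-type, 8.27 ± 0.15 in 5xFAD, 6.66 ± 0.12 in eIF2α+/S51A and 8.11 ± 0.22 in 5xFAD;eIF2α+/S51A mice. A further pair of probe sets is annotated to both Abi3 and its neighbour Phospho1 and was left out by the rule, with differences of -0.10 and -0.0004.

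A single Epha1 probe set, 4647649, was called in the knock-in background while its gene was not, as 0.26% of probe sets were in that direction. It read 7.05 to 7.23 in eIF2α+/S51A mice and 7.87 to 8.13 in 5xFAD;eIF2α+/S51A mice, a difference of 0.88 (limma adjusted p = 0.00946). In wild-type mice it read 7.56 to 7.79 and in 5xFAD mice 7.52 to 7.68, a difference of -0.10. Wild-type mice thus lay between the knock-in groups, and the interaction of 0.99 did not pass the adjustment over all probe sets (limma adjusted p = 1).

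A close relative of each member was set beside it. Inppl1, which encodes SHIP2 and is the broadly expressed relative of Inpp5d, differed by 0.20 (0.05 to 0.35, limma adjusted p = 0.182) over all 12 mice. Siglece, another sialic acid-binding lectin, differed by -0.00 (-0.15 to 0.14), and Abi2, a relative of Abi3 found in neurons, by -0.04 (-0.16 to 0.07). For Abca7 and Bin1 it was the relative that moved more. Bin2, which is known from blood cells and microglia, rose by 0.87 (0.57 to 1.16, limma adjusted p = 0.00209), against 0.06 for Bin1. In the separate comparisons Bin2 was called against wild-type mice (1.01, limma adjusted p = 0.0168) and not in the knock-in background (0.73, limma adjusted p = 0.106). Abca1, which loads lipid onto apolipoproteins, differed by 0.68 (0.47 to 0.89, limma adjusted p = 0.000961) and fell just short of the fold threshold, against 0.14 for Abca7. It was called in the knock-in background (0.70, limma adjusted p = 0.0184) and not against wild-type mice (0.65, limma adjusted p = 0.0298). The relatives of the other members, Snap91, Sh3kbp1, Sort1, Ptk2 and Epha2, lay between -0.05 and 0.10. The difference between a member and its relative was not itself tested.

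**Figure D4:**
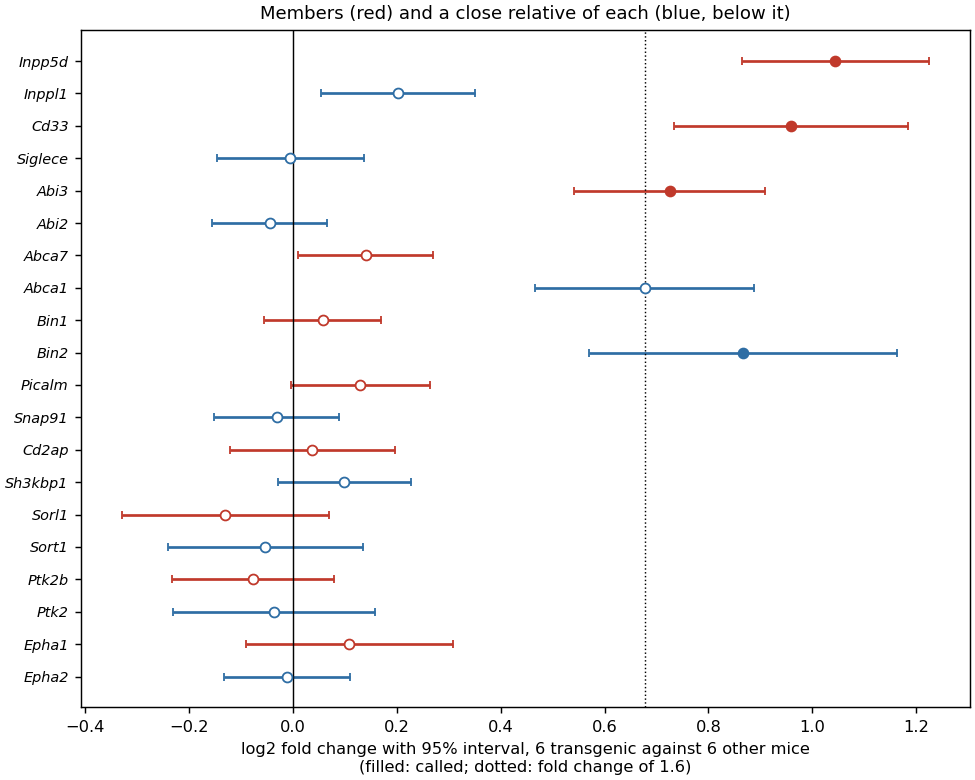
Log2 fold change with 95% interval over all 12 mice for each member (red) and a close relative (blue, below it); filled points were called and the dotted line marks a fold change of 1.6. Bin2 at 0.87 is the relative that was called, and Abca1 at 0.68 lies at the dotted line.

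Lists of relatives and possible signalling partners of the 3 microglial members included a few genes that rose. Over all 12 mice, 1.21% of all genes were called higher, and 3.47% had a limma adjusted p under 0.05 and a value above 0. Among 15 tested inositol phosphatase and PI3-kinase genes, 1 was called, Pik3cg, the PI3-kinase catalytic subunit of leukocytes, by 1.13 (limma adjusted p = 8.64e-05), and the median of the list was 0.13. A limma adjusted p under 0.05 was found in 3 of the 15. Among 8 tested Siglec and SHP phosphatase genes, 2 were called, Siglech by 0.79 and Cd22 by 0.70. Ptpn6, an SHP phosphatase gene, rose by 0.62 (limma adjusted p = 0.000192), under the fold threshold. It was called against wild-type mice (0.73, limma adjusted p = 0.00203) and not in the knock-in background (0.50, limma adjusted p = 0.0238). Among 10 WAVE complex genes, 1 was called: Nckap1l, the form of the Nckap1 subunit found in blood cells, rose by 1.20 (limma adjusted p = 8.31e-06), while Nckap1, its broadly expressed form, differed by -0.06. The list median was -0.03, and 2 of the 10 genes had an adjusted p under 0.05, Nckap1l and Wasf2, which differed by 0.34 (limma adjusted p = 0.00297) and was under the fold threshold.

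Lists of genes for the other members' pathways held 0 or 1 call each, where 1.21% of all genes were called higher. Of 20 clathrin endocytosis genes 1 was called, which was Bin2, and the list median was 0.04. A limma adjusted p under 0.05 and a value above 0 were found in 2 of the 20, against 3.47% of all genes. Of 10 Abca transporters 1 was called, Abca9, by 0.69 (limma adjusted p = 0.00239), with a list median of 0.03. No gene was called among 11 VPS10 receptor and retromer genes, the sorting machinery that works with Sorl1, among 8 Cd2ap partners, among 9 tested genes of focal adhesion kinase and Src signalling, or among 13 Eph receptors and ephrins. In each of these lists the gene with the smallest p was Snx1 (0.13), Cblb (-0.13), Tgfb1i1 (0.17) and Efna1 (0.28).

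A wider list of 36 further mouse counterparts of AD risk genes was measured for comparison, and 35 could be tested. Over all 12 mice 5 of these were called higher, against 1.21% of all genes, and none lower, with a median of 0.07. Trem2, a lipid receptor of microglia, rose by 2.12 (1.85 to 2.38), Grn, which encodes progranulin, by 0.93 (0.81 to 1.04), Spi1, which encodes PU.1, by 1.01 (0.78 to 1.25) and Ctsh, a lysosomal protease, by 0.96 (0.72 to 1.21). The fifth was Ms4a6d, at 1.00. App and Mapt were not called, and the lowest value was that of Ank3, at -0.11. An adjusted p under 0.05 and a value above 0 were found in 12 genes of the list, as in 3.47% of all genes. Higher values at this looser threshold were thus not confined to the 5 called genes.

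**Figure D5:**
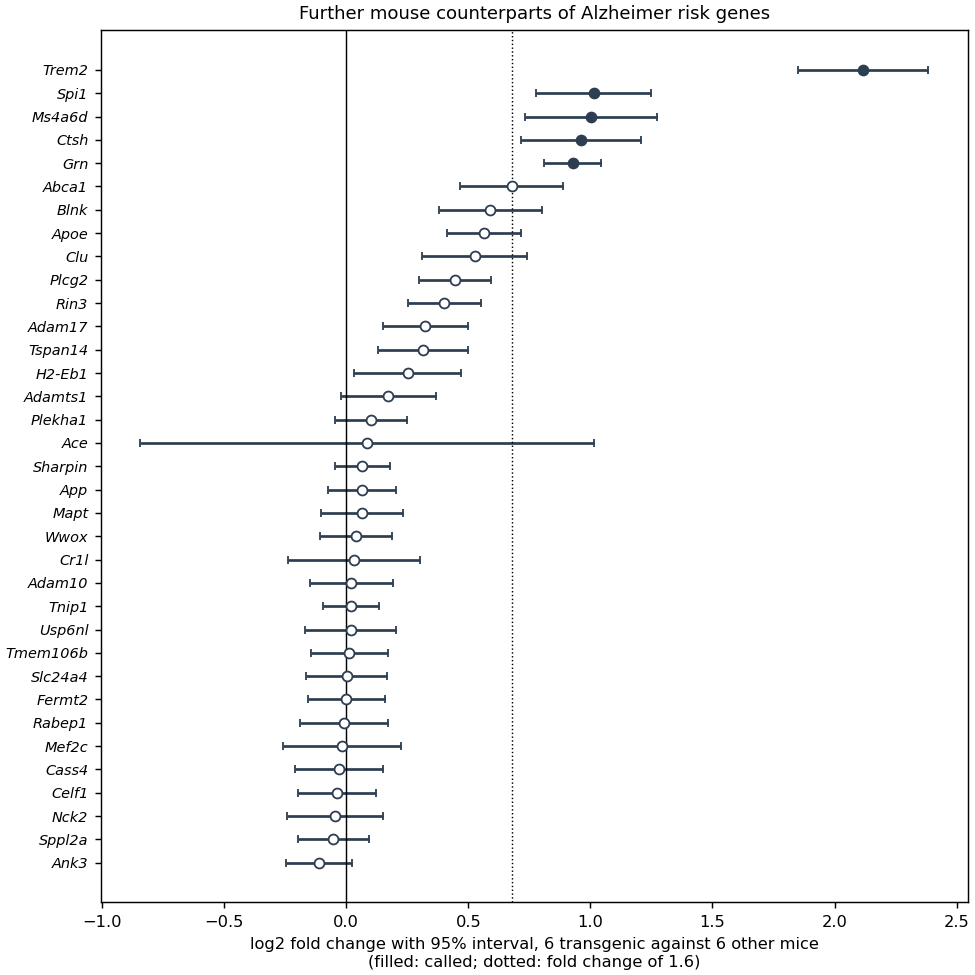
Log2 fold change with 95% interval over all 12 mice for 35 further mouse counterparts of AD risk genes; filled points were called and the dotted line marks a fold change of 1.6. Trem2 at 2.12 stands farthest from 0, followed by Spi1, Ms4a6d, Ctsh and Grn between 0.93 and 1.01.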

How the data were processed

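The values that the authors deposited are log2 signals, 1 per probe set and mouse, in a single matrix. Affymetrix Expression Console and RMA, without versions, are named in the submitters' processing notes. The design text gives another Affymetrix tool, and the study's methods describe GC-RMA in GeneSpring GX. Which of these made the matrix was not settled. The genome build is not given in the sources used here. Processing from scanner signals was not repeated.

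Symbols came from the platform annotation, and those of 47350 probe sets were updated through RefSeq names (GRCm38.p6). Probe sets with 1 symbol and a mean at or above 5.35 entered Tukey's median polish, for genes with at least 2. A mean for each group was fitted to all 12 arrays with limma 3.58.1 (R 4.3.3), and p-values were adjusted by Benjamini-Hochberg over all 18101 genes or 245890 probe sets. The rule for named genes took all members, up to 4 called genes per list (or the 1 with the smallest p), the relatives and the 3 most alike genes. Nckap1, App, Mapt, Ms4a6d, Ank3 and the single probe sets were chosen after their values were seen. The members and lists were chosen with earlier results of these data known. Tested on simulated data with 18101 genes, the transgene comparison over all 12 mice called 98.5% of genes changed by a factor of 2 and 20.9% of those changed by 1.5. Alternatives were other gene summaries, filters, normalization, fits and thresholds, covariates, the replicate number as a block and each array left out. The number of arrays limits the precision.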

Additional observations from a re-analysis of the deposited data

Results flagged for a closer look

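Of the 34 member probe sets below the background level, which entered no comparison, 2 separated the 6 transgenic from the 6 other mice, both higher in the transgenic mice. Of all 75201 probe sets with 1 symbol below that level, 0.398% separated them in this direction and 0.105% in the other. Inpp5d probe set 5395859 read 5.82 to 7.21 in the transgenic and 3.08 to 4.92 in the other mice. Cd33 probe set 5171536 read 5.00 to 6.35 and 3.73 to 4.80. The other mice all lay below the background level of 5.35, so the measured differences in mean log2 signal (2.19 for Inpp5d and 1.33 for Cd33) give a direction and no size. Both probe sets were singled out as signal in data outside the main measurement.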

How the results depend on the processing

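Inpp5d was called in all 3 transgene comparisons under all 25 alternatives, 12 of which left out 1 array. Over the 9 called values of Inpp5d, Cd33 and Abi3, 225 values were recomputed, 12 were no longer called and none changed sign; of 1275 values of results that were not called, 95 changed sign and none became called. Leaving out 1 array, the members called numbered 2 to 3 in each transgene comparison and 0 in each comparison of the allele, the member probe sets called 30 to 40, and the genes with unequal probe sets 3. Cd33 was lost once, in 5xFAD against wild-type mice without wild-type replicate 3 (0.94, limma adjusted p = 0.0205). Abi3 was lost in that comparison with the mean of the probe sets (0.67), quantile normalization (0.65), array weights (0.64) and only the arrays compared (0.71, limma adjusted p = 0.0402), and without wild-type replicate 1 (0.62), wild-type replicate 2 (0.72) or 5xFAD replicate 2 (0.60). In the knock-in background Abi3 was lost without eIF2α+/S51A replicate 1 (0.72), 5xFAD;eIF2α+/S51A replicate 2 (0.65) or replicate 3 (0.76), and over all 12 mice without 5xFAD replicate 2 (0.67). The cause was not tested. Over all genes, calls moved by over 1.5 times from 174 to 109 (without 5xFAD replicate 2), 114 (without wild-type replicate 2) and 308 (adjusted p under 0.05 with no fold threshold) in 5xFAD against wild-type mice, from 176 to 311 and from 219 to 653 with that threshold in the knock-in background and over all 12 mice, and from 0 to 70 with array weights for the allele alone. The refits without an array kept the filter and gene values of all arrays.

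Same-numbered mice did not clearly deviate together (18 pairs, correlations -0.32 to 0.32, against -0.45 to 0.44 in 36 other pairs). No pairing by number was seen, and a weak pairing could look the same, so it is not excluded. With the replicate number as a block, 3 members were called in each transgene comparison and 36 probe sets in place of 40.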
